A study of Mus musculus with 12 samples.

Results

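Cisplatin enters and leaves kidney tubule cells through carriers that normally move organic cations, copper and drug conjugates, and 9 of their genes are described here in mouse kidney after a course of the drug. The genes were taken by symbol from a table of 45777 genes: Slc22a2, Slc31a1, Slc31a2, Slc47a1, Atp7a, Atp7b, Abcc2, Abcb1a and Abcb1b. Each symbol matched 1 row, and all 9 passed the expression filter that left 18730 genes for testing. None of the 9 passed the test of edgeR, the one used throughout, in any comparison of groups, whereas DESeq2 and limma-voom called 5 and 6 of them after cisplatin, where they called 16.3% and 32.9% of the genes they tested. Values are therefore given with their spread.

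Bulk RNA sequencing covered 12 kidney libraries from wild-type male C57BL/6 mice, in 4 groups of 3. The Normal group had neither cisplatin nor vesicles and is listed with no injection. Mice of the PBS, EV200 and EV400 groups all had cisplatin, a platinum drug that binds DNA and injures the proximal tubule, at 9 mg/kg into the peritoneum weekly over 5 cycles. Afterwards they had 5 injections into a vein, 3 days apart, of phosphate-buffered saline in the PBS group and of extracellular vesicles, from cells that the labels abbreviate iMSC, at 200 µg in EV200 and 400 µg in EV400. These kidneys were taken 3 days after the last injection. Neither the ages of the mice nor the hour of collection appears in the labels. The titles number the libraries of each group as biological replicates, and nothing further says that each came from a separate mouse. P-values therefore measure the spread between these libraries, which is that between mice only if each library came from its own mouse. The vesicles are known here by that abbreviation alone, and the Normal group differs from the PBS group by the injections as well as by the drug, which cannot be told apart.

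In the proximal tubule, the organic cation transporter OCT2, encoded by Slc22a2, takes cisplatin up from the blood side, and MATE1, encoded by Slc47a1, extrudes organic cations into the urine. The copper importer CTR1 (Slc31a1) also admits the drug, whereas its relative CTR2 (Slc31a2) sits largely on internal membranes and is known to affect CTR1 and drug accumulation. The copper pumps ATP7A and ATP7B move copper, and in resistant tumour cells platinum, into vesicles or out of the cell. MRP2 (Abcc2) exports glutathione and other conjugates across the apical membrane, and P-glycoprotein, which mice encode in a pair of genes, Abcb1a and Abcb1b, exports many hydrophobic drugs, though cisplatin itself is not regarded as a good substrate.

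The P-glycoprotein genes are hard to tell apart by sequence. Abcb1a (chromosome 5, 8567091 to 8748575) and Abcb1b (chromosome 5, 8798147 to 8866314) lie close together on the plus strand (GRCm38.p6, RefSeq). Their coding sequences of 3828 bases each (GENCODE vM21) were identical at 87.981% of 3819 aligned bases. Of 3728 windows of 101 bases, the read length, 361 (9.683%) occurred letter for letter in the other gene. A read from such a window cannot be assigned by its sequence alone, and the treatment of such reads in the counting is not stated in the labels. The stretch below is 1 read length from the middle of the longest identical run, which is 338 bases long, and shows where the genes share reads. The next 2 lines show the 60 aligned bases with the most differences, with the 25 differing bases in capitals, where reads tell the genes apart.
Abcb1a and Abcb1b, coding bases 1475 to 1575 of Abcb1a: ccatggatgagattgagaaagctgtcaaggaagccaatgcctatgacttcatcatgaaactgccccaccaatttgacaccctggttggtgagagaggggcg
Abcb1a, coding bases 1913 to 1972: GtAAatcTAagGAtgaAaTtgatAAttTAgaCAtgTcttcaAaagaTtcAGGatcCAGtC
Abcb1b, coding bases 1922 to 1981: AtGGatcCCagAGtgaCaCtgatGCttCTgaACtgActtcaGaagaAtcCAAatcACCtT

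Promoters are printed for 2 pairs of related genes on the same chromosome, Abcb1a with Abcb1b because their values lay on the same side of the PBS group in both vesicle groups, and Slc31a1 with Slc31a2 because their values lay on opposite sides of the Normal group after cisplatin. Each window of 300 bases runs 5′ to 3′ on the plus strand across a RefSeq transcript start (GRCm38.p6), most of it upstream. The windows lie at chr5:8566841-8567140, chr5:8797897-8798196, chr4:62360451-62360750 and chr4:62286179-62286478, in the order printed. Capitals mark matches, on either strand, to CACGTG (an E-box bound by clock and USF factors), CCAAT and GGGCGG (a GC box).
Abcb1a promoter: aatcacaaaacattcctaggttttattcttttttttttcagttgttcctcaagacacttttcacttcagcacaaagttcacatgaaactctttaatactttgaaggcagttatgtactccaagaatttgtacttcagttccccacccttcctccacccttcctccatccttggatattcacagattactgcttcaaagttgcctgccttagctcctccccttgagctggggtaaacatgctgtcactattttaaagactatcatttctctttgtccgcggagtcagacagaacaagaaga
Abcb1b promoter: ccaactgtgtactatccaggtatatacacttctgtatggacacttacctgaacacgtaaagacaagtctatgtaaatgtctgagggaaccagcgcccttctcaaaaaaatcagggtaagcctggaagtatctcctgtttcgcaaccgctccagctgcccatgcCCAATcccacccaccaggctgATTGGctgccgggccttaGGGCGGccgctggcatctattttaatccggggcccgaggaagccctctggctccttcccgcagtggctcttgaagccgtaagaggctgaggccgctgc
Slc31a1 promoter: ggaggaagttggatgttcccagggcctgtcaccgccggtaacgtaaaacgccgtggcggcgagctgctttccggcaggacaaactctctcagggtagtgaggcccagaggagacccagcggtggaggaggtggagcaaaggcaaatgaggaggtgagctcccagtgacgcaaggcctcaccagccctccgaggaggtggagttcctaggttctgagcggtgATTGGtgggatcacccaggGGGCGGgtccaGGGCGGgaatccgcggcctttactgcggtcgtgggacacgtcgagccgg
Slc31a2 promoter: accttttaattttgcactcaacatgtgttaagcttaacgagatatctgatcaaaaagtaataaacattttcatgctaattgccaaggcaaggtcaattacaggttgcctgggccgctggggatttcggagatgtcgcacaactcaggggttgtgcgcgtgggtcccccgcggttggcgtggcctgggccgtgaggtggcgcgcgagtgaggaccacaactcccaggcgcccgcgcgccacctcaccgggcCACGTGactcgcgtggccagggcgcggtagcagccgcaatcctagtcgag

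The Abcb1a window held no match, and the Abcb1b window held CCAAT 2 times and GGGCGG 1 time. The Slc31a1 window held CCAAT 1 time and GGGCGG 2 times, and the Slc31a2 window held CACGTG at the transcript start it was drawn on. Of 32851 promoter windows of this length, 7.15% held CACGTG, 37.408% CCAAT and 35.658% GGGCGG. Among the 8 members with a window, CACGTG occurred in 2 (Atp7a and Slc31a2), CCAAT in 4 and GGGCGG in 3. TTATGTAA, a D-box bound by Dbp and Tef, occurred in none of the 8 and in 0.938% of all windows. No motif overlapped another, and a match is a run of letters, with no evidence here of binding. The Abcb1a start of RefSeq lies upstream of the start in GENCODE vM21, at 8660077, so this window is not next to the first exon of that annotation. The Slc31a2 window lies downstream of the gene start in RefSeq, at 62280393, and in GENCODE vM21, at 62262562, so it is not next to the outermost start of either. Slc47a1 was not matched to a window.

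Levels per transcript length spanned a wide range among the genes. In the Normal group, deposited TPM averaged 617 ± 14.1 for Slc47a1, 346 ± 7.91 for Slc22a2, 159 ± 12.6 for Abcc2 and 93.9 ± 0.820 for Slc31a1 (SD, n = 3). Slc31a2 averaged 13.0 ± 0.841 TPM and Atp7a 6.40 ± 0.307 TPM. The lowest levels were 2.55 ± 0.190 TPM for Abcb1b, 2.52 ± 0.211 TPM for Abcb1a and 2.17 ± 0.373 TPM for Atp7b, and in the Normal group these neighbours overlapped in their libraries. Every other neighbour in the order was separate there. All 9 genes kept the same rank in all 4 groups, in TPM and in FPKM. In the PBS, EV200 and EV400 groups Atp7b was separate from Abcb1a. The cation and conjugate carriers stood at the top of the plot of deposited TPM, and the copper pumps and P-glycoprotein genes at the bottom. Read counts behind these values ranged from 36160 to 51927 for Slc47a1 and from 221 to 420 for Atp7b, so that relative counting error is larger for the low genes.

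**Figure D1:**
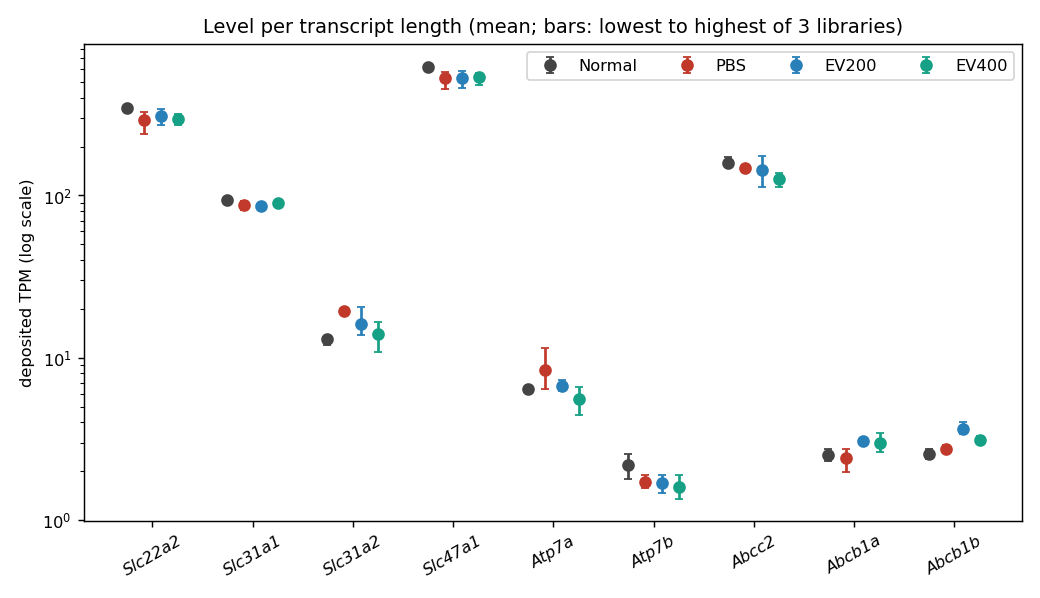
Deposited TPM of the 9 transporter genes (log axis) by group, with points at the mean and bars from the lowest to the highest of 3 libraries. Slc47a1 stands highest, with a Normal mean of 617, and Atp7b lowest, with a Normal mean of 2.17, and the order of genes is the same in the 4 groups.

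Total counts ranged from 46.6 to 62.1 M per library, with TMM scaling factors from 0.891 (EV400 3) to 1.12 (PBS 2). All 18 proximal tubule markers were detected in each library, with summed levels of 19353 to 33937 CPM (read counts relative to depth, corrected by TMM). The sums were lowest in PBS 2 (19353 CPM) and EV200 3 (22603 CPM), which also had the highest sums of 12 tubular injury markers, 1825 and 2126 CPM against 619 to 1435 CPM elsewhere. PBS 3 stood apart in 8 adipose markers, with 56.1 CPM where the 11 others had 1.27 to 2.63 CPM. A clock score, the mean standardized log2 CPM of 5 genes minus that of 3 genes of the circadian clock, was -3.98 to -1.16 in the PBS group and -0.06 to 2.63 in the 9 other libraries.

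PBS was set against Normal to see where the transporters stood after the cisplatin course. Uptake, efflux and copper carriers (Slc22a2, Slc31a1, Slc47a1, Atp7b and Abcc2) lay lower in PBS, with differences of -34.1% (Atp7b) to -18.7% (Abcc2), and Slc31a2 lay 30.2% higher, but none passed. In the quasi-likelihood test of edgeR, adjusted by Benjamini-Hochberg over all genes, 0 of 9 genes had an adjusted p under 0.05, against 2.74% of all genes tested, and their adjusted p ranged from 0.0599 to 0.661. At an unadjusted p under 0.05 there were 5 of 9, against 29.8% of all genes. Of these, 1 was higher (17% of all genes) and 4 were lower (12.8%). In CPM the libraries did not overlap for 1 gene that was higher (20.3% of all genes) and 5 that were lower (20%). Of these 5, Abcc2 and Atp7b overlapped in deposited TPM. The median log2 fold change of the 9 genes was -0.30, beside 0.00 for all genes tested. In bulk kidney, fewer cells of a type and less RNA per cell cannot be told apart.

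Slc22a2 (chromosome 17, 12584189 to 12628489), the uptake gene, had 440, 456 and 420 CPM in the Normal libraries and 372, 253 and 344 CPM in the PBS libraries. Every PBS library lay below every Normal library, and PBS 2 was far below the other PBS libraries. The log2 fold change was -0.44 (SE 0.14), with an adjusted p of 0.0775 by edgeR. Slc47a1 (chromosome 11, 61343400 to 61378842), the efflux partner, had 925, 970 and 956 CPM in Normal and 800, 583 and 779 CPM in PBS. Again the groups were separate and PBS 2 was lowest. Its log2 fold change was -0.40 (SE 0.13), with an adjusted p of 0.0879 by edgeR.

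The uptake and efflux genes stood in a narrow proportion to each other. The ratio of Slc22a2 to Slc47a1 in TPM lay between 0.529 (PBS 2) and 0.590 (EV200 3) across all 12 libraries. Its mean was 0.562 ± 0.0240 in Normal and 0.545 ± 0.0198 in PBS (SD, n = 3, exact permutation test, two-sided p = 0.3, smallest possible 0.1), and the EV200 libraries, at 0.570 to 0.590, lay above every PBS library. Slc22a2 also varied little relative to the 18 proximal tubule markers, none of which is among the 9 genes. Its CPM was 1.31 ± 0.0314% of their sum in Normal, 1.33 ± 0.0223% in PBS, 1.31 ± 0.0214% in EV200 and 1.27 ± 0.0256% in EV400. PBS against Normal had a two-sided exact permutation p of 0.4 (n = 3, smallest possible 0.1). Slc47a1 stood at 2.84 ± 0.0950% of the sum in Normal and 2.97 ± 0.0574% in PBS, with overlapping libraries (exact permutation p = 0.2, n = 3). In EV400 the share of Slc22a2 lay below every PBS library. That of Slc47a1 lay below every PBS library in both vesicle groups, at 2.76 ± 0.0308% in EV200 and 2.81 ± 0.0415% in EV400. Slc31a1 stood at 0.621 ± 0.0130% in Normal and 0.704 ± 0.0623% in PBS, where every library lay above Normal although its CPM lay below (exact permutation p = 0.1, n = 3). Abcc2 stood at 1.52 ± 0.130% in Normal, 1.72 ± 0.215% in PBS and 1.37 ± 0.0180% in EV400. Slc31a2 rose from 0.042 ± 0.0024% in Normal to 0.078 ± 0.013% in PBS, and Atp7a from 0.093 ± 0.0048% to 0.155 ± 0.074%, both without overlap. Atp7b overlapped, at 0.0215 ± 0.0039% in Normal and 0.0199 ± 0.0033% in PBS (exact permutation p = 0.6, n = 3). These shares do not depend on the scaling factors, and they were computed after the values above were seen. The marker list itself had 16 of 18 genes below 0 in PBS against Normal, with a median log2 fold change of -0.45 and 1 gene called lower, and its part in the transporter values was not tested beyond these shares.

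**Figure D2:**
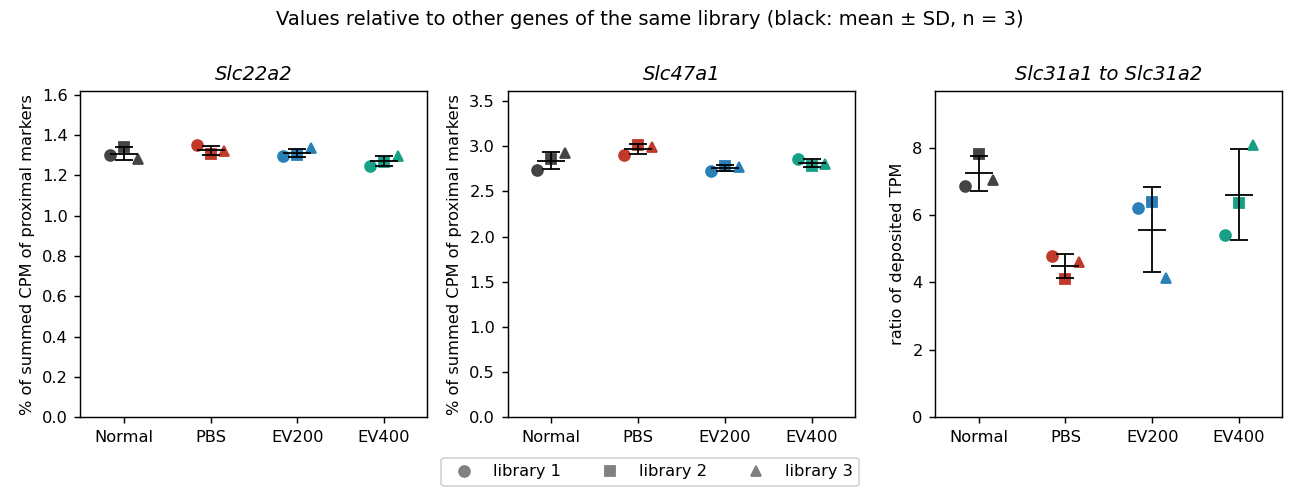
Values relative to other genes of the same library, 1 point per library with black bars for mean ± SD (n = 3): Slc22a2 and Slc47a1 as a percent of the summed CPM of 18 proximal tubule markers, and the ratio of Slc31a1 to Slc31a2 in TPM. The Slc22a2 means lie between 1.27% and 1.33% in the 4 groups, while the Slc31a1 to Slc31a2 ratio averages 7.24 in Normal and 4.50 in PBS.

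Slc31a1 (chromosome 4, 62360583 to 62391769), the copper and cisplatin importer, had 205, 213 and 206 CPM in Normal and 184, 150 and 173 CPM in PBS. The groups were separate, with a log2 fold change of -0.30 (SE 0.10) and an adjusted p of 0.0775 by edgeR. Its relative Slc31a2 (chromosome 4, 62280393 to 62298412), encoding the CTR2 protein, had 14.7, 13.4 and 14.4 CPM in Normal and 19.0, 17.9 and 18.6 CPM in PBS. Here every PBS library lay above every Normal library and the 3 PBS libraries were close together. The log2 fold change was 0.38 (SE 0.13), with an adjusted p of 0.0895 by edgeR.

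No scaling factor enters the proportion of these 2 copper transporter genes. The TPM ratio of Slc31a1 to Slc31a2 was 6.85, 7.82 and 7.04 in Normal and 4.79, 4.11 and 4.59 in PBS, with no overlap. The means were 7.24 ± 0.513 and 4.50 ± 0.351 (SD, n = 3), with a two-sided exact permutation p of 0.1, the smallest that 3 against 3 libraries allow. In EV200 the ratio was 6.20, 6.38 and 4.13, with EV200 3 at the level of the PBS libraries. In EV400 it was 5.41, 6.34 and 8.07, above every PBS library. The exact permutation p against PBS was 0.3 for EV200 and 0.1 for EV400 (two-sided, n = 3). The ratio is 1 of 5 computed between members, and with 6 comparisons each none could pass a threshold of 0.05 at this number of libraries.

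Among the copper pumps, Atp7b (chromosome 8, 21992783 to 22060074, minus strand) had 5.98, 8.62 and 7.04 CPM in Normal and 5.20, 4.58 and 4.49 CPM in PBS. The groups were separate but the Normal libraries spread widely. Its log2 fold change was -0.60 (SE 0.17), and its adjusted p of 0.0599 by edgeR was the smallest of the 9 genes in this comparison. Atp7a (chromosome X, 106027224 to 106128161), which pumps copper in most cell types outside the liver, had 30.5, 30.5 and 32.2 CPM in Normal and 28.3, 46.3 and 31.8 CPM in PBS. PBS 2 alone stood high, and the other PBS libraries overlapped Normal. The log2 fold change of 0.19 (SE 0.15, adjusted p 0.386 by edgeR) became -0.03 without PBS 2. The TPM ratio of Atp7a to Atp7b was 3.00 ± 0.546 in Normal, 4.97 ± 1.67 in PBS, 4.05 ± 0.802 in EV200 and 3.48 ± 0.193 in EV400 (SD, n = 3), with an exact permutation p of 0.2 for PBS against Normal.

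Of the ATP-driven exporters, Abcc2 (chromosome 19, 43782308 to 43838332) had 479, 500 and 544 CPM in Normal and 429, 381 and 429 CPM in PBS. The groups were separate in CPM, with a log2 fold change of -0.30 (SE 0.15) and an adjusted p of 0.194 by edgeR. In deposited TPM Abcc2 overlapped, at up to 151.4 in PBS and from 150.6 in Normal. Abcb1a had 8.27, 7.27 and 7.54 CPM in Normal and 5.51, 6.38 and 7.47 CPM in PBS, with PBS 3 inside the Normal range. Abcb1b had 7.03, 6.22 and 6.44 CPM in Normal and 6.01, 6.25 and 6.31 CPM in PBS, which also overlapped. Their log2 fold changes were -0.25 (SE 0.13) and -0.08 (SE 0.12), with adjusted p of 0.203 and 0.661 by edgeR, and the value of Abcb1b turned to 0.09 with total counts in place of TMM factors.

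**Figure D3:**
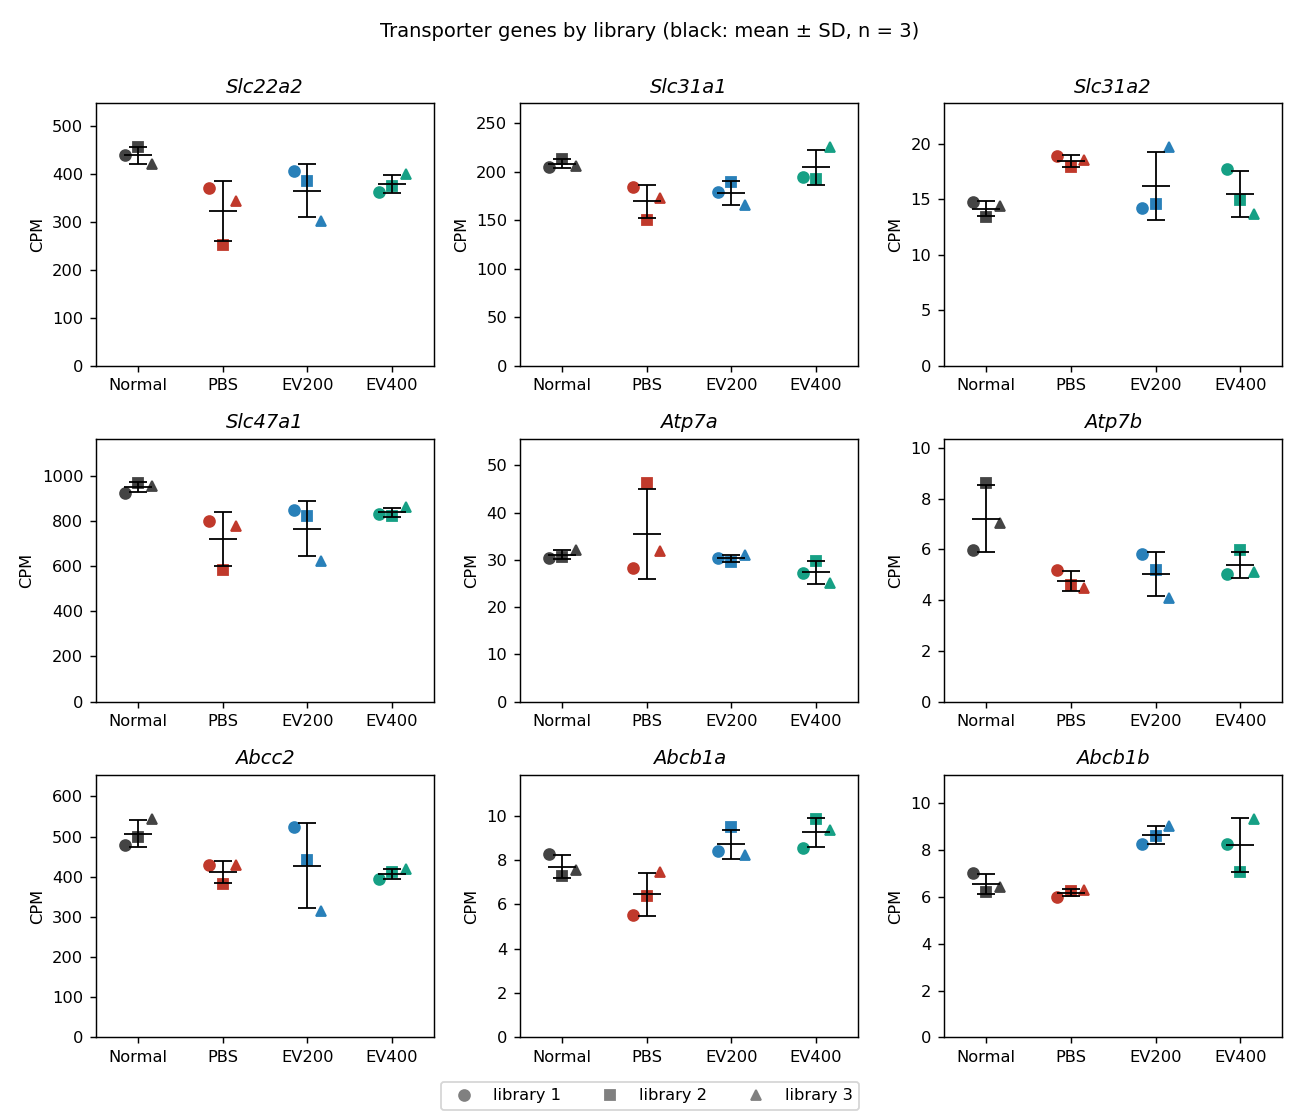
CPM of the 9 transporter genes in each library, by group, with library numbers as symbols and black bars for mean ± SD (n = 3). PBS 2 (253 CPM) and EV200 3 (302 CPM) are lowest for Slc22a2, and the vesicle libraries lie above the PBS libraries for Abcb1a and Abcb1b.

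Which calls were made depended on the tool. DESeq2 called 5 of the 9 genes in PBS against Normal (Atp7b, Slc22a2, Slc31a1, Slc31a2 and Slc47a1), where it called 16.3% of the genes with an adjusted p. Limma-voom with quality weights called these and Abcc2, and 32.9% of all genes, with weights of 3.47 for PBS 3 and 0.163 for PBS 2. By edgeR, 3 genes passed without PBS 1 and 4 without EV200 3, fits in which 11.9% and 12.6% of all genes passed. Total counts in place of TMM factors, an alternative chosen after seeing the data, moved the median of all genes to 0.17. Slc22a2 then had -0.28, Slc47a1 -0.24, Slc31a1 -0.13, Abcc2 -0.13 and Slc31a2 0.55, with the direction of each unaltered.

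PBS 2 and EV200 3 were the 2 lowest libraries for Slc22a2, Slc31a1, Slc47a1 and Abcc2. They also had the highest level of Havcr1, the gene of the tubular injury marker KIM-1, at 16.1 and 26.0 CPM, where the 10 others had 1.18 to 7.27 CPM. Without both, a choice made after the data were seen, Slc22a2 had -0.29 and Slc47a1 -0.26 in PBS against Normal, and edgeR then called 2 of the 9 genes, these 2, with adjusted p of 0.0381 and 0.0299, beside 5.99% of all genes. The spread within PBS and EV200 was wide for these genes. The coefficient of variation of Slc22a2 was 19.3% in PBS and 15.1% in EV200, but 4.14% in Normal and 4.87% in EV400.

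EV200 was set against PBS for the lower vesicle dose, and EV400 is compared with the same PBS libraries. The P-glycoprotein genes were higher in EV200, by 35.0% for Abcb1a and 39.4% for Abcb1b, and the 7 other genes overlapped between groups. By edgeR, with the same adjustment, 0 of 9 genes passed, against 0.016% of all genes, with adjusted p from 0.609 to 0.912. At an unadjusted p under 0.05 there were 2 of 9 (6.9% of all genes), Abcb1a and Abcb1b, with 2 higher (3.83% of all genes) and 0 lower (3.08%). Libraries did not overlap for these 2 above PBS (5.53% of all genes) and for 0 below (4.94%). The median of the 9 was 0.08, beside 0.00 for all genes. Limma-voom called 3 (Slc31a2, Abcb1a and Abcb1b) and 8.8% of all genes, and DESeq2 called 0, as for 0.218% of the genes with an adjusted p.

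EV200 libraries had 8.43, 9.47 and 8.25 CPM of Abcb1a, all above the highest PBS library at 7.47 CPM. The log2 fold change was 0.43 (SE 0.13), with a p of 0.00510 and an adjusted p of 0.657 by edgeR. Abcb1b had 8.27, 8.59 and 9.05 CPM in EV200, above every PBS and every Normal library. Its log2 fold change against PBS was 0.48 (SE 0.12), with a p of 0.00150 and an adjusted p of 0.609 by edgeR. Of the tubule carriers, Slc22a2 had 406, 386 and 302 CPM, Slc47a1 852, 824 and 626 CPM, and Slc31a1 179, 189 and 165 CPM. EV200 3 was low in each, at the level of PBS libraries. Abcc2 ranged most, with 525, 441 and 315 CPM.

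Of the copper genes, Slc31a2 and Atp7b also set EV200 3 apart, and Atp7a did not. Slc31a2 had 14.2 and 14.6 CPM in EV200 1 and EV200 2, near Normal, and 19.7 CPM in EV200 3, the highest of all libraries. Atp7b had 5.81, 5.19 and 4.10 CPM, with EV200 3 the lowest of all libraries. Atp7a stood at 30.4, 29.5 and 30.9 CPM, within the range of the PBS libraries. Against PBS the log2 difference was -0.19 (SE 0.13) for Slc31a2, 0.08 (SE 0.17) for Atp7b, -0.23 (SE 0.15) for Atp7a and 0.05 (SE 0.15) for Abcc2. Without PBS 2 the value of Atp7a was 0.01, and with total counts in place of TMM factors that of Abcc2 was -0.03.

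In EV400 against PBS, the higher dose, both P-glycoprotein genes and the carriers Slc31a1 and Slc47a1 lay above PBS in each library in CPM, and Slc31a2 lay below. In deposited TPM, which carry no TMM factor, Abcb1a, Slc31a1 and Slc47a1 overlapped PBS. Abcb1b stayed above PBS in TPM by a narrow gap, 2.926 in EV400 2 against 2.918 in PBS 2. By edgeR, adjusted alike, 0 of 9 genes passed, against 0.0801% of all genes, with adjusted p from 0.123 to 0.951. At an unadjusted p under 0.05 there were 4 of 9 genes (23.5% of all genes), 3 higher (10.9%) and 1 lower (12.6%). Libraries did not overlap for 4 genes that were higher (12.2% of all genes) and 1 that was lower (13.8%). The median of the 9 was 0.22, beside -0.02 for all genes tested. DESeq2 called Abcb1a and Abcb1b, and 5.62% of the genes with an adjusted p, while limma-voom called Abcb1b and Slc31a1, and 14.6% of all genes.

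Abcb1a had 8.55, 9.87 and 9.34 CPM in EV400, above every PBS and every Normal library. Its log2 fold change against PBS was 0.52 (SE 0.13), with a p of 0.00152 and an adjusted p of 0.123 by edgeR. Abcb1b had 8.28, 7.05 and 9.34 CPM, above every PBS library, with EV400 2 next to the highest Normal library. Its log2 fold change was 0.41 (SE 0.12), with an adjusted p of 0.143 by edgeR. In deposited TPM, Abcb1a had 2.61 to 3.45 in EV400 and 1.99 to 2.75 in PBS. With total counts in place of TMM factors the values were 0.37 for Abcb1a and 0.25 for Abcb1b, while the median of all genes was -0.17.

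The importer Slc31a1 had 195, 193 and 225 CPM in EV400 and a log2 fold change of 0.27 (SE 0.10), with an adjusted p of 0.163 by edgeR, and total counts gave 0.12. Its TPM were 87.2 to 93.0 in EV400 and 81.3 to 92.0 in PBS. Slc47a1 had 833, 824 and 862 CPM and 0.22 (SE 0.13), or 0.079 with total counts, and its TPM were 478 to 571 in EV400 and 453 to 573 in PBS. Slc22a2, at 363, 376 and 399 CPM, overlapped PBS through the highest PBS library, and its value was 0.23 (SE 0.14), or 0.092 with total counts. Slc31a2 had 17.7, 15.0 and 13.7 CPM, just under the PBS range, with -0.25 (SE 0.13). Atp7a had 27.1, 29.8 and 25.0 CPM and -0.38 (SE 0.15, adjusted p 0.179 by edgeR), or -0.14 without PBS 2. Atp7b, at 5.03, 5.97 and 5.12 CPM, and Abcc2, at 394, 411 and 418 CPM, overlapped PBS and lay below the Normal libraries, with 0.18 (SE 0.17) and -0.02 (SE 0.15) against PBS.

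**Figure D4:**
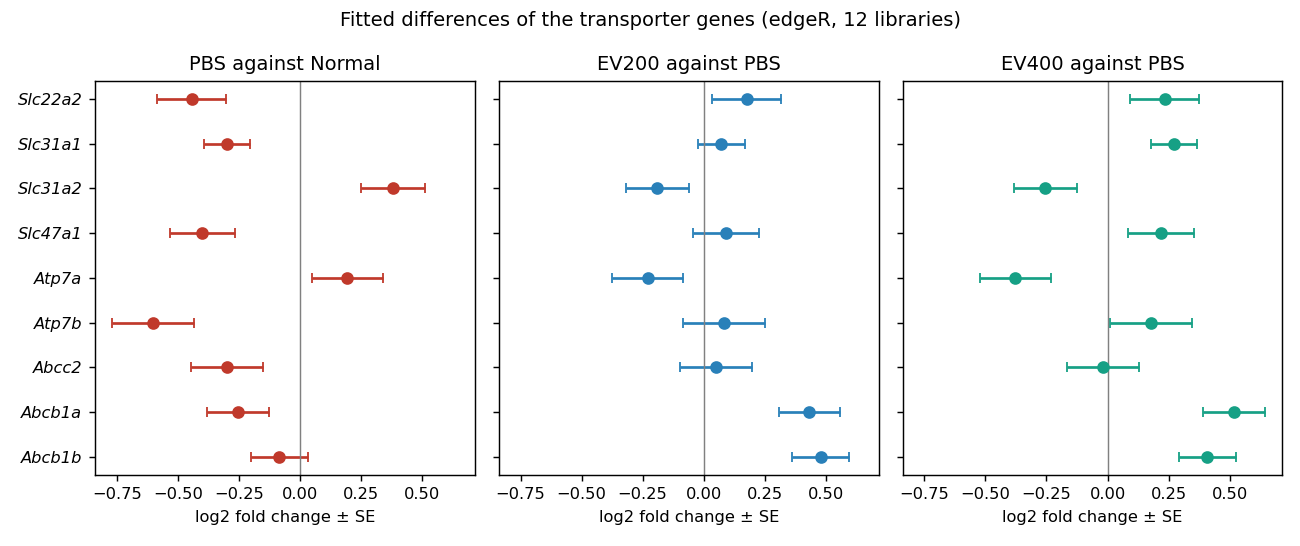
Fitted log2 fold changes ± SE of the 9 genes in 3 comparisons, from 1 edgeR fit of 12 libraries. Abcb1a and Abcb1b have the highest values against PBS, at 0.43 and 0.48 in EV200 and 0.52 and 0.41 in EV400, and no gene had an adjusted p under 0.05.

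Both vesicle groups lay above all PBS libraries in 2 of the 9 genes, Abcb1a and Abcb1b, and in 2.79% of all genes tested. The groups share the PBS libraries, so the 2 doses are not independent evidence. As a percent of the summed proximal tubule markers, both genes overlapped PBS in both vesicle groups. Exact permutation p (n = 3) was 0.5 in EV200 and 0.4 in EV400 for Abcb1a, and 0.4 and 0.9 for Abcb1b. That share of Abcb1b was 0.0196 ± 0.0012% in Normal and 0.0261 ± 0.0055% in PBS, without overlap. The markers themselves had a median log2 fold change against PBS of 0.19 in EV200 and 0.32 in EV400. For the mean of both doses against PBS, a contrast chosen after seeing the data, edgeR gave 0.48 (SE 0.11) for Abcb1a and 0.44 (SE 0.10) for Abcb1b, with an adjusted p of 0.163 for each. Since reads may be shared between the pair, their counts were also summed to 1 row. The sum had 0.46 (SE 0.09) in EV200 and 0.47 (SE 0.09) in EV400, with adjusted p of 0.576 and 0.0762 by edgeR. The proportion of Abcb1a to Abcb1b in TPM lay between 0.771 (PBS 1) and 1.18 (EV400 2). Annotated exons of Abcb1a share 553 bases with Gm42686 and those of Abcb1b share 143 bases with Gm5106, both on the other strand. Without the strand setting of the counting, which the labels do not state, reads from these partners cannot be told apart.

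The PBS libraries had the lowest clock scores, and the P-glycoprotein genes are set beside the score in each group. In PBS the score was -3.98, -3.06 and -1.16. Abcb1a (5.51, 6.38 and 7.47 CPM) and Abcb1b (6.01, 6.25 and 6.31 CPM) stood in the same order. In Normal the scores of 0.30, 0.67 and 0.56 ran opposite to Abcb1a (8.27, 7.27 and 7.54 CPM) and to Abcb1b (7.03, 6.22 and 6.44 CPM). In EV400 the scores were 1.21, 1.87 and 2.63, and neither gene took that order. In EV200 the scores were -0.06, 0.64 and 0.37, and neither gene took that order there either. Dbp, a clock output factor gene, had 15.1, 26.2 and 52.6 CPM in PBS and 73.5 to 137 CPM in the other libraries. With the clock score as a covariate, Abcb1a had 0.04 in EV200 and -0.08 in EV400 against PBS, and Abcb1b had 0.36 and 0.22. No PBS library overlapped another group in clock score, so the score and the PBS group cannot be told apart in these data. Orders within a group rest on 3 libraries and decide nothing about the clock. Endothelial markers, for a cell type known to express Abcb1a, summed to 427 to 537 CPM over 10 genes in all libraries. The sums were 497 to 524 CPM in Normal, 440 to 509 CPM in PBS, 482 to 537 CPM in EV200 and 427 to 514 CPM in EV400. The median log2 fold change of these markers against PBS was 0.15 in EV200 and -0.009 in EV400, and their part in the Abcb1a values was not tested.

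**Figure D5:**
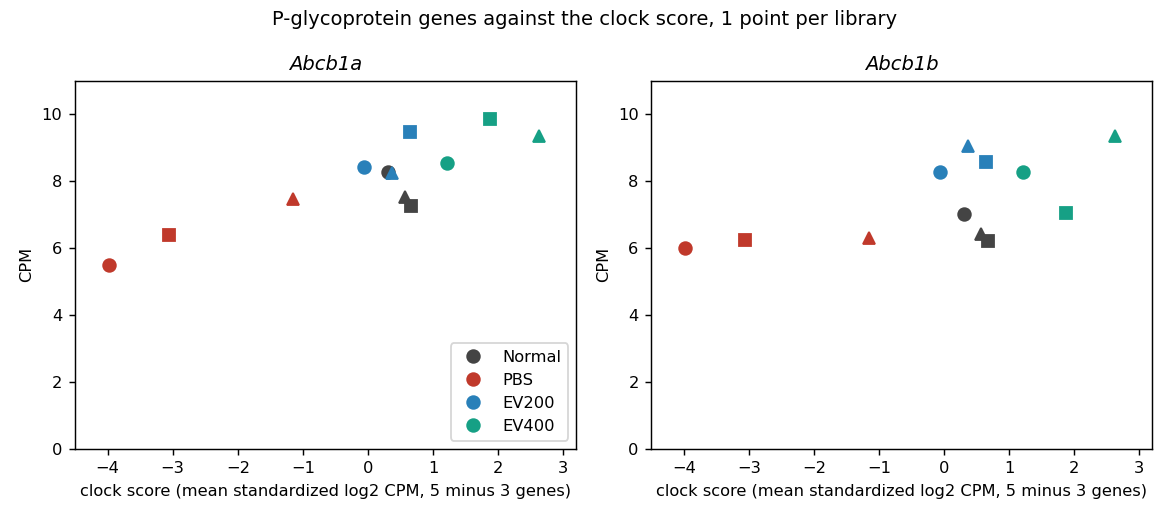
CPM of Abcb1a and Abcb1b against the clock score, 1 point per library, colours for groups and symbols for library numbers. The PBS libraries lie at the left, at scores of -3.98 to -1.16. Their values order with the score for both genes, over 5.51 to 7.47 CPM for Abcb1a and 6.01 to 6.31 CPM for Abcb1b.

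Against Normal, Atp7b lay lower and Abcb1b higher in both vesicle groups, without overlap in CPM. For Atp7b the gap in EV400 was narrow, 5.97 against 5.98 CPM, and in deposited TPM it overlapped Normal (lowest 1.80) in EV200 (highest 1.90) and EV400 (highest 1.89). In EV200, 0 of 9 genes passed by edgeR (0.0694% of all genes), and 4 had a p under 0.05 before adjustment (13.2%), 1 higher (8.86%) and 3 lower (4.32%). In EV400, 0 of 9 passed (0% of all genes), and 2 had a p under 0.05 before adjustment (6.98%), 1 higher (3.31%) and 1 lower (3.67%), with adjusted p from 0.672 to 0.972. The libraries were separate for 1 gene above and 4 below in EV200 (11.9% and 12.9% of all genes), and for 2 above and 5 below in EV400 (8.28% and 10.6%). Atp7b had -0.52 (SE 0.17) in EV200 and -0.42 (SE 0.17) in EV400, and Abcb1b 0.40 (SE 0.12) and 0.32 (SE 0.12). Limma-voom called 1 gene in EV200 (Abcb1b) and 3 in EV400 (Slc22a2, Abcc2 and Abcb1b), against 5.86% and 7.91% of all genes. DESeq2 called 0 in both, against 2.37% and 0.104%.

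Between the doses, 0 of 9 genes passed by edgeR (0.00534% of all genes) and 0 had a p under 0.05 before adjustment (6.34%), higher (2.53%) or lower (3.81%). DESeq2 and limma-voom also called 0 of 9 (0.0871% and 0.774% of genes). Slc31a1 alone was separate, with EV400 above EV200 (5.1% of all genes, 5.57% below), and had a log2 difference of 0.20 (SE 0.10). For the P-glycoprotein genes the doses differed by 0.09 (SE 0.13) for Abcb1a and -0.07 (SE 0.12) for Abcb1b, so a difference of either sign within these errors was not detectable. In the joint test over the 4 groups 0 of 9 genes passed by edgeR, against 0.0641% of all genes, and 4 had a p under 0.05 before adjustment (19.7% of all genes). DESeq2 called 3 jointly (9.07% of genes) and limma-voom 8 (35.4%). The smallest joint p was 0.00323 for Abcb1b, with an adjusted p of 0.140.

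Other genes of the same pathways were taken from 5 lists. Among 8 further organic cation and anion carriers, 2 fell in PBS against Normal and none rose, by edgeR, which called 2.74% of all genes. Slc22a4, encoding the ergothioneine carrier OCTN1, fell from 103 ± 3.72 to 65.6 ± 9.97 CPM (log2 fold change -0.65, SE 0.11, adjusted p 0.0321 by edgeR). Slc22a5, encoding the carnitine carrier OCTN2, fell from 323 ± 10.1 to 217 ± 43.0 CPM (-0.57, SE 0.13, adjusted p 0.0471). Both calls were lost without any 1 Normal library (adjusted p 0.115 to 0.158), without PBS 2, EV400 1 or EV400 2 (0.0518 to 0.145) and with the clock covariate (0.912), and that of Slc22a5 also without EV200 2, with total counts and with no filter on low counts. The 18 proximal tubule markers, with a median of -0.45, lay lower beside them, and their part was not tested. In EV400 these genes stood at 89.3 ± 4.56 and 299 ± 11.3 CPM, above every PBS library, with adjusted p of 0.123 and 0.145 by edgeR. The list's median log2 fold change was -0.45 in PBS against Normal and 0.34 in EV400 against PBS, beside 0.00 and -0.02 for all genes.

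Of 15 copper handling genes, 2 rose in PBS against Normal and none fell (2.74% of all genes called). Heph, encoding the copper-dependent ferroxidase hephaestin, rose from 7.09 ± 0.478 to 13.3 ± 4.05 CPM (0.91, SE 0.19, adjusted p 0.0428 by edgeR). Steap4, encoding a reductase of iron and copper, rose from 0.857 ± 0.0151 to 2.51 ± 1.30 CPM (1.55, SE 0.36, adjusted p 0.0471). Both calls were lost without any 1 Normal library (adjusted p 0.135 to 0.160), without PBS 2, PBS 3, EV200 2, EV400 1 or EV400 2 (0.0525 to 0.150) and with the clock covariate (0.912 and 0.454), and that of Steap4 also with no filter on low counts and in the fits of the compared groups alone and without several libraries. In EV400 they averaged 9.71 ± 0.387 and 1.33 ± 0.141 CPM, with adjusted p of 0.184 and 0.179 against PBS by edgeR. The list's median was -0.09 in PBS against Normal, so the list as a whole did not lean as these 2 genes did. Macrophage markers moved in the same direction, with sums over 10 genes of 143 to 170 CPM in Normal and 353 to 683 CPM in PBS, and their part in Heph and Steap4 was not tested.

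No gene passed in the 3 other lists in any comparison by edgeR. Of 9 further ABC exporters, 8 were tested. Abcc3, encoding the basolateral exporter MRP3, averaged 1.67 ± 0.250 CPM in Normal, 5.98 ± 2.37 CPM in PBS and 2.35 ± 0.927 CPM in EV400, with a log2 fold change of 1.84 (SE 0.49) and an adjusted p of 0.0565 in PBS against Normal. Abcc1, encoding MRP1, had 0.45 (SE 0.14, adjusted p 0.0746). Among 11 regulators, Ppara, a nuclear receptor of fatty acid metabolism, averaged 161 ± 9.06 CPM in Normal, 116 ± 10.2 CPM in PBS and 170 ± 31.9 CPM in EV400 (-0.47, SE 0.16, adjusted p 0.0832). The 5 subunits of the LRRC8 anion channel, which is known to admit cisplatin, had a median of -0.07 in PBS against Normal. Lrrc8e, low at 0.579 ± 0.0794 CPM in Normal, had 0.69 (SE 0.35) in PBS and 1.23 (SE 0.35, adjusted p 0.186 by edgeR) in EV200 against Normal. Lrrc8d averaged 133 ± 3.28 CPM in Normal and 112 ± 8.1 CPM in PBS (-0.26, SE 0.10, adjusted p 0.121 by edgeR). Lrrc8b had -0.07 (SE 0.08) in PBS against Normal and 0.25 (SE 0.08, adjusted p 0.769 by edgeR) in EV400 against EV200.

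The genes whose levels were most like each transporter over the 12 libraries were found by the mean absolute difference of log2 CPM centred on each gene, among 10700 genes averaging at least 5 CPM. Slc22a2 was nearest to Lrpap1, encoding the receptor-associated chaperone of megalin, with a mean difference of 0.028, and Ldhd was next at 0.029. Its own mean absolute deviation was 0.17. Slc31a1 was nearest to C1rl (0.019) and Slc33a1 (0.028), and Slc47a1 was near Glb1l (0.034). Slc31a2 was nearest to Jpt1 (0.060) and Kctd15 (0.068), and Abcc2 to C2cd2l (0.055) and Slc16a13 (0.058). Atp7a was nearest to Bclaf1 and Kat6a, each at 0.047.

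The low genes had more distant neighbours. Atp7b was nearest to Ace, encoding the angiotensin-converting enzyme of the brush border, at 0.089, and to Slc39a14, a zinc and manganese carrier gene, at 0.094. Abcb1a was nearest to Pdxk, encoding pyridoxal kinase, at 0.088, and Pnpla7, at 0.093. Abcb1b was nearest to Rps23-ps1 (0.077) and Mgst1 (0.096), the latter encoding a membrane glutathione transferase. These distances describe the libraries at hand, which share their groups and their scaling factors.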

How the data were processed

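RNA of 12 kidney libraries was made into stranded mRNA libraries and read from both ends, 101 bases each, per the labels' protocols. The submitters' processing notes name the tools Trimmomatic 0.38, FastQC 0.11.7, StringTie 2.1.3b and HISAT2 2.1.0 and the builds GRCm38 and mm10. Counter, strand setting and annotation version were not given in the sources used here. In 1 table the authors deposited whole-number read counts, TPM and FPKM per gene. TPM and FPKM, per the file headers, were used for levels per length only.

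Read counts entered edgeR 4.0.16 in R 4.3.3, quasi-likelihood test: TMM factors, the default filter by group, a coefficient per group over all libraries, 8 residual degrees of freedom, and Benjamini-Hochberg adjustment over 18730 genes, called under 0.05. CPM are counts per library size times TMM factor. The standard error (SE) is the absolute log2 fold change over the square root of F. Alternatives were DESeq2 1.42.0, its size factors, limma-voom (limma 3.58.1), other filters, a replicate block, a clock covariate, pairwise fits, the summed Abcb1 pair and left-out libraries. The test was also run on simulated counts.

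The transporter genes and the gene and marker lists were chosen with earlier results of these data known. Named beyond the transporters are list genes called in any comparison or with the 2 smallest joint p of their list, and the 2 nearest genes of each transporter. Of the genes this rule names, 2 are not reported here. Havcr1, Dbp and Lrrc8d, the shares of proximal tubule markers and the contrast of both doses were chosen after the values were seen. Total counts without TMM factors and the joint omission of PBS 2 and EV200 3 were too. Promoter windows are from RefSeq (GRCm38.p6). Same-numbered libraries were not treated as pairs.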

Additional observations from a re-analysis of the deposited data

How the results depend on the processing

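No label says that same-numbered libraries are pairs, and the deposited columns of the groups given cisplatin carry partly different numbers. Correlations of same-numbered deviations were -0.385 to 0.345. Differently numbered pairs were not computed, so these values cannot decide on pairing. With the replicate block edgeR called 0 of the 9 genes in every comparison, as without it. It called 0 of all genes in PBS against Normal, where 514 were called without the block. The block takes up residual degrees of freedom for numbers not known to pair libraries. Leaving out any 1 Normal library also gave 0 calls among all genes in that comparison, and leaving out PBS 2 gave 1. The calls of Slc22a4, Slc22a5, Heph and Steap4 were lost with the block (adjusted p 0.0787 to 0.0901). Filters on low counts and the size factors of DESeq2 also left 0 calls, as did total counts without TMM factors. In PBS against Normal, DESeq2 called 5 of the 9 genes (16.3% of the genes it tested) and limma-voom 6 (32.9%). The fit of the compared groups alone called 1 (Slc31a2), beside 1449 of the 18026 genes it tested. The fit without PBS 3, EV200 3 and EV400 3 called 2, beside 2319 of 18833 genes. That without PBS 2 and EV200 3 called 2, beside 1121 of 18706 genes. Leaving out 1 library gave 0 to 4 of the 9, in fits that called 0 to 2405 of all genes. Limma-voom called 3 in EV200 and 2 in EV400 against PBS, 1 in EV200 and 3 in EV400 against Normal, and 8 jointly, while DESeq2 called 2 in EV400 against PBS and 3 jointly. The cause of these differences between tools was not tested. Of 1284 alternative values of single genes, 43 reversed direction and 34 gained a call. As 0 of the 9 genes had passed, no call could be lost.

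In EV400 against EV200, Slc22a2 (0.06) turned to -0.018 with total counts, -0.054 with limma-voom, -0.10 without PBS 3, EV200 3 and EV400 3 and -0.066 without PBS 2 and EV200 3. Slc31a2 (-0.06) turned to 0.18 with limma-voom, 0.0086 with the clock covariate, 0.18 without the 3 libraries and 0.10 without the pair. Slc47a1 (0.13) turned to -0.016 without the 3 and -0.0016 without the pair, and Atp7b (0.09) to -0.0020 with limma-voom, -0.00047 without the 3 and -0.038 without the pair. Abcb1a (0.09) turned to -0.056 with limma-voom and -0.12 with the clock covariate. That covariate also turned Abcb1a to 0.16 in PBS against Normal and to -0.082 in EV400 against PBS, and Abcb1b to 0.047 in PBS against Normal, where total counts gave 0.085. Total counts turned Atp7a to 0.068 in EV200 against Normal and Abcc2 to -0.026 in EV200 against PBS. Without PBS 2 and EV200 3, Atp7a turned to -0.041 in PBS against Normal and 0.0032 in EV200 against PBS.

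With 1 library left out at a time, Atp7a ranged from -0.034 to 0.33 in PBS against Normal, -0.37 to 0.013 in EV200 against PBS and -0.052 to 0.0042 in EV200 against Normal. In EV200 against PBS the range was -0.0030 to 0.14 for Slc31a1, -0.038 to 0.22 for Slc47a1, -0.029 to 0.21 for Atp7b and -0.12 to 0.23 for Abcc2. In EV400 the range was -0.084 to 0.021 for Slc31a1 against Normal and -0.070 to 0.013 for Abcc2 against PBS. In EV400 against EV200 it was -0.062 to 0.15 for Slc22a2, -0.17 to 0.10 for Slc31a2, -0.034 to 0.22 for Atp7b, -0.25 to 0.11 for Abcc2 and -0.17 to 0.030 for Abcb1b. Abcb1a and Abcb1b against PBS held their sign with any library left out, at 0.33 to 0.55 and 0.45 to 0.51 in EV200 and 0.42 to 0.64 and 0.32 to 0.51 in EV400. Counts of 221 to 523 per library limit the precision of Atp7b, Abcb1a and Abcb1b.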
